A study of Mus musculus with 32 samples.

Results

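The genes described here encode the nuclear subunits and assembly factors of respiratory complex I, the NADH:ubiquinone oxidoreductase of the inner mitochondrial membrane. They were chosen by name, as every gene whose symbol in the platform annotation begins with Nduf followed by a, b, c, s or v. The choice gave 43 of 19938 named genes, each represented by its brightest probe set over the 32 arrays, and all 43 passed the filter on dim genes. By place in the complex they comprised 10 genes of the N module, 5 of the Q module, 9 each of the proximal and distal membrane arm, 7 assembly factors, the acyl carrier protein Ndufab1, and the pair Ndufa4 and Ndufa4l2.

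Transcript levels in both atria of 16 mice were read as log2 probe set signals, each atrium on its own Affymetrix Mouse Gene 1.0 ST array. There were 4 animals of each genotype. Mst1 animals carried mammalian sterile 20-like kinase 1, a kinase of the Hippo pathway encoded by Stk4, and dnPI3K animals carried a dominant negative phosphoinositide 3-kinase, which blunts insulin and growth factor signalling. The dnPI3K-Mst1 animals carried both, and Ntg animals neither; all had a mixed C57BL/6 and FVB/N background and ate standard chow. The labels do not give the promoter or the cell type that drives a transgene, nor the age or sex of the animals.

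Complex I takes electrons from NADH at the tip of its matrix arm (the N module), passes them through iron-sulphur clusters to ubiquinone at the base of that arm (the Q module), and couples this to proton pumping in the membrane arm. Most of its subunits are encoded in the nucleus, a few in mitochondrial DNA, and dedicated assembly factors join the modules without staying in the finished enzyme. The heart is rich in the complex, since cardiac myocytes draw most of their ATP from oxidative phosphorylation.

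Before the results, a few facts of the libraries bear on them. Stk4 was between 8.16 and 8.35 in Mst1 animals, 7.50 and 7.79 in dnPI3K animals, 8.17 and 8.39 in dnPI3K-Mst1 animals, and 7.41 and 7.65 in Ntg animals (means of an animal's atria), so it was higher in every animal labelled with Mst1. Pik3ca, which encodes a catalytic subunit of PI3K, was higher in dnPI3K than in Ntg animals by 0.92 ± 0.13 and also higher in Mst1 than in Ntg animals by 0.61; the labels do not name the altered subunit. The atrial genes Nppa, Myl7 and Myl4 were bright on all 32 arrays, while the ventricular gene Myl2 reached 10.70 on the array labelled left of dnPI3K 1648, and 8.15 and 7.65 on the arrays labelled right of Ntg 1301 and Ntg 1834. The fat cell gene Adipoq was 7.85 on the array labelled left of Ntg 1301 and 7.79 on that labelled right of dnPI3K-Mst1 1650, against at most 5.72 on the other arrays. Bmp10, which marks the right atrium in adult mice, split the arrays into 16 high ones, from 11.42 to 12.77, and 16 low ones, from 3.77 to 6.64. Each animal had 1 of each, but the high array was labelled left in 13 animals and right in 3 (Mst1 1839, Ntg 1301 and Ntg 1662). The atria are therefore compared here by Bmp10 class, divided at 9 log2, and not by labelled side. On 4 arrays the mean correlation with the others was below 0.97, namely those labelled left of Mst1 1466, dnPI3K 1507 and dnPI3K 3241 and that labelled right of Ntg 1662.

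In Mst1 atria nearly the whole complex was lower than in Ntg atria. Of the 43 genes, 40 fell and none rose (limma on animal means, Benjamini-Hochberg over 15219 genes), where 14.2% of all genes tested were called lower. The median difference was -0.65 log2, or 1.57-fold lower, beside -0.0011 over all genes, and single genes ranged from -1.02 for Ndufs8 to -0.19 for Ndufaf5. The 4 animals of each genotype did not overlap for 37 of the 43, a state found, in the same direction, in 14.6% of all genes. Ndufa1, Ndufaf4 and Ndufaf5 did not pass the test. In bulk tissue, fewer cells of a type and less RNA per cell cannot be told apart.

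In dnPI3K-Mst1 atria all 43 genes fell against Ntg, where 14.2% of all genes tested were called lower, with a median of -0.86 and a range from -1.25 for Ndufs6 to -0.30 for Ndufa4l2, and 12 genes were lower by at least 1 log2. The animals of both genotypes did not overlap for 42 of the 43 genes, the exception being Ndufa4l2, beside 15.1% of all genes. In dnPI3K atria 9 of 43 genes fell against Ntg, where 2.75% of all genes tested were called lower. The median was -0.29, beside -0.0042 over all genes. All 43 estimates were below 0 in that comparison, 36 of them at an unadjusted p under 0.05, and the animals did not overlap for 29 genes, beside 7.7% of all genes. Counts at an unadjusted p and counts of estimates below or above 0, here and below, lack the share of all genes and are descriptions. The 9 that passed the adjusted test were Ndufaf5, Ndufaf1, Ndufab1, Ndufs8, Ndufs4, Ndufa4l2, Ndufb3, Ndufa3 and Ndufaf7. Leaving out 1 animal moved this to 4 genes without Ntg 1662 or dnPI3K 1660, 5 without dnPI3K 1507, 14 without dnPI3K-Mst1 1647 and 18 without Mst1 1466.

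**Figure D1:**
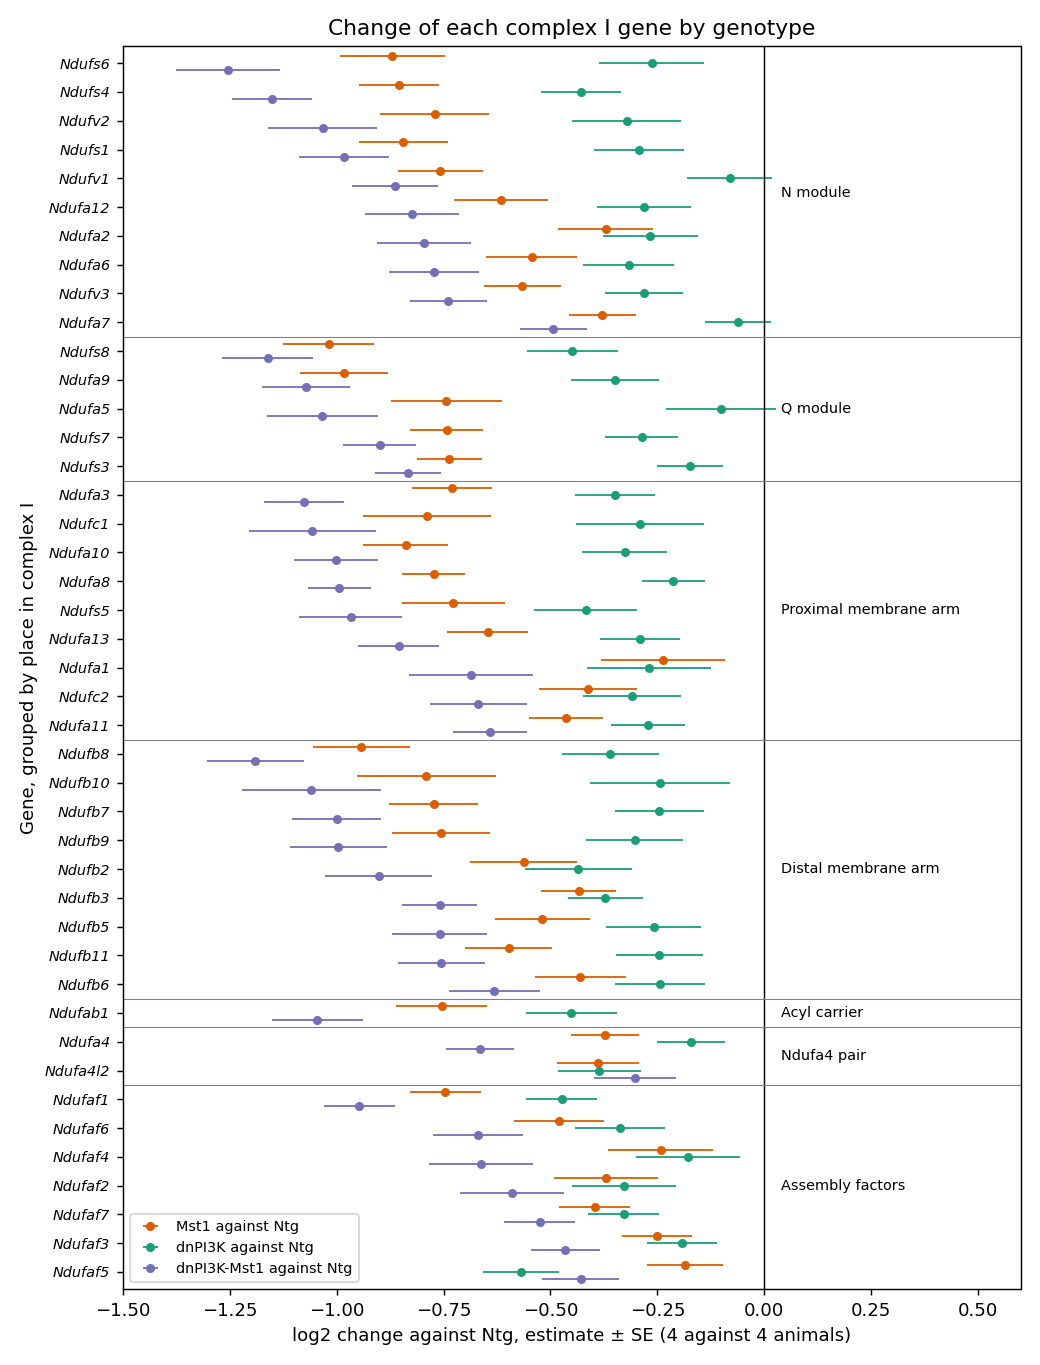
Difference of each of 43 complex I genes from Ntg, as log2 estimate ± SE from limma (4 against 4 animals), for Mst1, dnPI3K and dnPI3K-Mst1. Genes are grouped by place in the complex; Mst1 estimates run from -1.02 to -0.19, dnPI3K estimates from -0.57 to -0.06 and dnPI3K-Mst1 estimates from -1.25 to -0.30, and all lie left of 0.

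The level of the whole set in an animal can be given by averaging each gene over both atria in the log2 scale and taking the median of the 43 means. It was 9.28, 8.96, 9.08 and 8.82 in Mst1 animals (1466, 1838, 1839 and 1840), against 9.80, 9.83, 9.88 and 9.78 in Ntg animals (1301, 1657, 1662 and 1834). It was 9.49, 9.56, 9.44 and 9.34 in dnPI3K animals (1507, 1648, 1660 and 3241). In dnPI3K-Mst1 animals (1509, 1647, 1649 and 1650) it was 8.85, 8.52, 8.82 and 8.86. Every transgenic animal was below every Ntg animal, and the dnPI3K animals lay between the Ntg animals and both groups with Mst1. Mst1 and dnPI3K-Mst1 animals overlapped, since Mst1 1840 was lower than dnPI3K-Mst1 1509 and dnPI3K-Mst1 1650. The animal order used here is kept for every list of 4 values that follows.

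**Figure D2:**
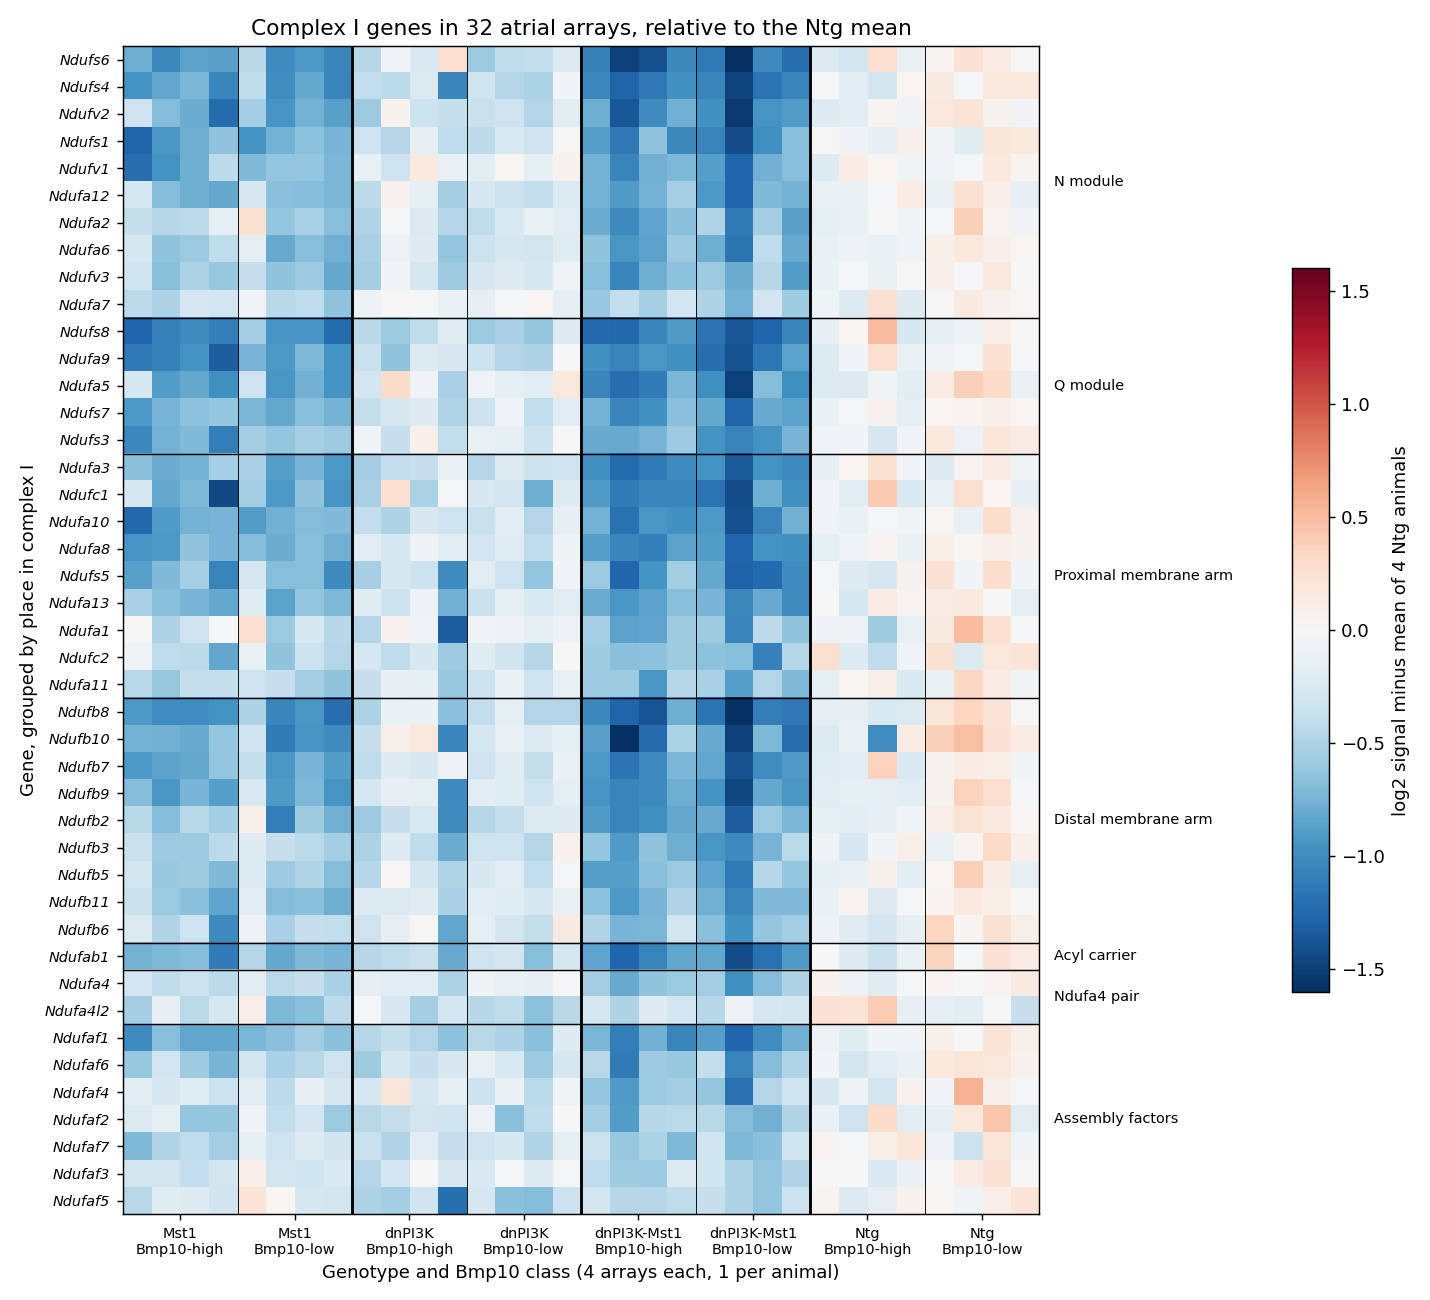
Each of 43 complex I genes (rows) on each of 32 arrays (columns), as log2 signal minus the mean of the 4 Ntg animals for that gene; columns run by genotype and Bmp10 class, 4 arrays each. Blue cells are below the Ntg mean and fill most of the Mst1 and dnPI3K-Mst1 columns in both classes, are paler in dnPI3K, and the Ndufaf5, Ndufa4l2 and Ndufa1 rows depart from the others.

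The N module holds the NADH-oxidising tip, and all 10 of its genes fell in Mst1 atria, with a median of -0.69. Ndufs6, an accessory subunit that carries a zinc site, had the largest fall of the module. It was 8.70, 8.29, 8.42 and 8.36 in Mst1 animals, against 9.22, 9.27, 9.50 and 9.25 in Ntg animals. In dnPI3K-Mst1 animals Ndufs6 was 8.20, 7.74, 8.10 and 8.19, and in dnPI3K animals 8.78, 9.08, 8.99 and 9.33. All animals with Mst1 were below all animals without it. The difference from Ntg was -0.87 ± 0.12 in Mst1 (adjusted p = 2e-05, limma) and -1.25 ± 0.12, or 2.39-fold lower, in dnPI3K-Mst1 (adjusted p = 1.9e-07, limma), while that in dnPI3K, -0.26 ± 0.12, did not pass the test (adjusted p = 0.28, limma).

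Ndufs4, an accessory subunit that stabilises the attachment of the N module and whose loss causes Leigh syndrome, was lower with either transgene. Its levels were 9.17, 8.93, 9.07 and 8.80 in Mst1 animals and 9.49, 9.40, 9.48 and 9.31 in dnPI3K animals. They were 8.80, 8.47, 8.69 and 8.82 in dnPI3K-Mst1 animals, against 9.92, 9.75, 9.78 and 9.94 in Ntg animals. No transgenic animal overlapped the Ntg animals, and the dnPI3K animals lay between Ntg and Mst1. Ndufs4 differed from Ntg by -0.85 ± 0.094 in Mst1 (adjusted p = 1.1e-06, limma), by -0.43 ± 0.094 in dnPI3K (adjusted p = 0.013, limma) and by -1.15 ± 0.094 in dnPI3K-Mst1 (adjusted p = 2e-08, limma).

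Ndufv1, the subunit that binds NADH and its flavin, was lower in both groups with Mst1. It was 9.47, 9.63, 9.73 and 9.86 in Mst1 animals, against 10.29, 10.48, 10.53 and 10.42 in Ntg animals. In dnPI3K animals Ndufv1 was 10.28, 10.28, 10.43 and 10.40, within or beside the Ntg range, with a difference of -0.08 ± 0.10 (adjusted p = 0.75, limma). It fell by 0.76 in Mst1 (adjusted p = 9.6e-06, limma) and by 0.86 in dnPI3K-Mst1 (adjusted p = 1.5e-06, limma). Mst1 differed from dnPI3K by -0.68 ± 0.10 for Ndufv1 (adjusted p = 5.4e-05, limma), the most negative value of the 43 genes in that comparison. Ndufs1, the large iron-sulphur subunit of the module, averaged 10.14 ± 0.19 in Mst1 animals, 10.69 ± 0.088 in dnPI3K animals, 10.003 ± 0.21 in dnPI3K-Mst1 animals and 10.98 ± 0.11 in Ntg animals (SD, n = 4 each). The smallest fall of the module in Mst1 was that of the accessory subunit Ndufa2, -0.37 ± 0.11 (adjusted p = 0.016, limma), for which Mst1 1466, at 8.87, overlapped the Ntg animals.

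The Q module, where ubiquinone is reduced, had all 5 of its measured genes lower in Mst1 atria, from -1.02 to -0.74. Ndufs8, an iron-sulphur subunit on the path to ubiquinone, had the most negative estimate of all 43 genes. It was 8.36, 8.25, 8.29 and 8.10 in Mst1 animals, against 9.13, 9.25, 9.57 and 9.14 in Ntg animals. Ndufs8 was 8.75, 8.71, 8.76 and 9.06 in dnPI3K animals and 8.06, 7.96, 8.12 and 8.29 in dnPI3K-Mst1 animals. None of these groups overlapped Ntg, while Mst1 and dnPI3K-Mst1 animals overlapped each other. Its difference from Ntg was -1.02 ± 0.11 in Mst1, or 2.03-fold lower (adjusted p = 5.7e-07, limma), -0.45 ± 0.11 in dnPI3K (adjusted p = 0.02, limma) and -1.16 ± 0.11 in dnPI3K-Mst1 (adjusted p = 8.7e-08, limma). At the other end of the module Ndufs3, a core subunit of the matrix arm, fell by 0.74 in Mst1 (adjusted p = 5.3e-07, limma), and its 2 probe sets gave -0.74 and -0.76.

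The membrane arm carries the proton-pumping path. In Mst1 atria 8 of 9 genes of its proximal part fell, with a median of -0.73, and all 9 of its distal part, with a median of -0.60. Ndufa10, an accessory subunit that sits on the matrix face of the arm, was 10.21, 10.45, 10.56 and 10.56 in Mst1 animals, against 11.28, 11.17, 11.41 and 11.29 in Ntg animals. These animals did not overlap, and the fall of Ndufa10 was 0.84 (adjusted p = 2.6e-06, limma). In dnPI3K animals Ndufa10 averaged 10.96 ± 0.063 and in dnPI3K-Mst1 animals 10.28 ± 0.21 (SD, n = 4 each).

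Ndufa1, a small X-linked subunit at the base of the membrane arm, was the proximal gene that did not pass the test in Mst1. It was 10.16, 9.49, 9.74 and 9.80 in Mst1 animals, against 10.06, 10.24, 9.88 and 9.96 in Ntg animals. Mst1 1466 lay among the Ntg animals and the other three below them, and the difference was -0.24 ± 0.14 (adjusted p = 0.26, limma). In dnPI3K-Mst1 animals, at 9.48, 9.08, 9.40 and 9.43, Ndufa1 was below every Ntg animal and fell by 0.69 (adjusted p = 0.0011, limma).

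Ndufb8, a distal subunit often used as a blot marker for assembled complex I, was 8.75, 8.43, 8.49 and 8.37 in Mst1 animals, against 9.48, 9.56, 9.44 and 9.34 in Ntg animals. It was 8.35, 7.996, 8.21 and 8.49 in dnPI3K-Mst1 animals and 9.001, 9.33, 9.16 and 8.88 in dnPI3K animals. Ndufb8 was lower in every animal with Mst1 than in any animal without it. It differed from Ntg by -0.94 ± 0.11 in Mst1 (adjusted p = 3.1e-06, limma) and by -1.19 ± 0.11 in dnPI3K-Mst1 (adjusted p = 1.3e-07, limma), while the dnPI3K difference, -0.36 ± 0.11, did not pass the test (adjusted p = 0.082, limma). Ndufb6 had the smallest fall of the distal genes in Mst1, -0.43 ± 0.11 (adjusted p = 0.0045, limma).

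**Figure D3:**
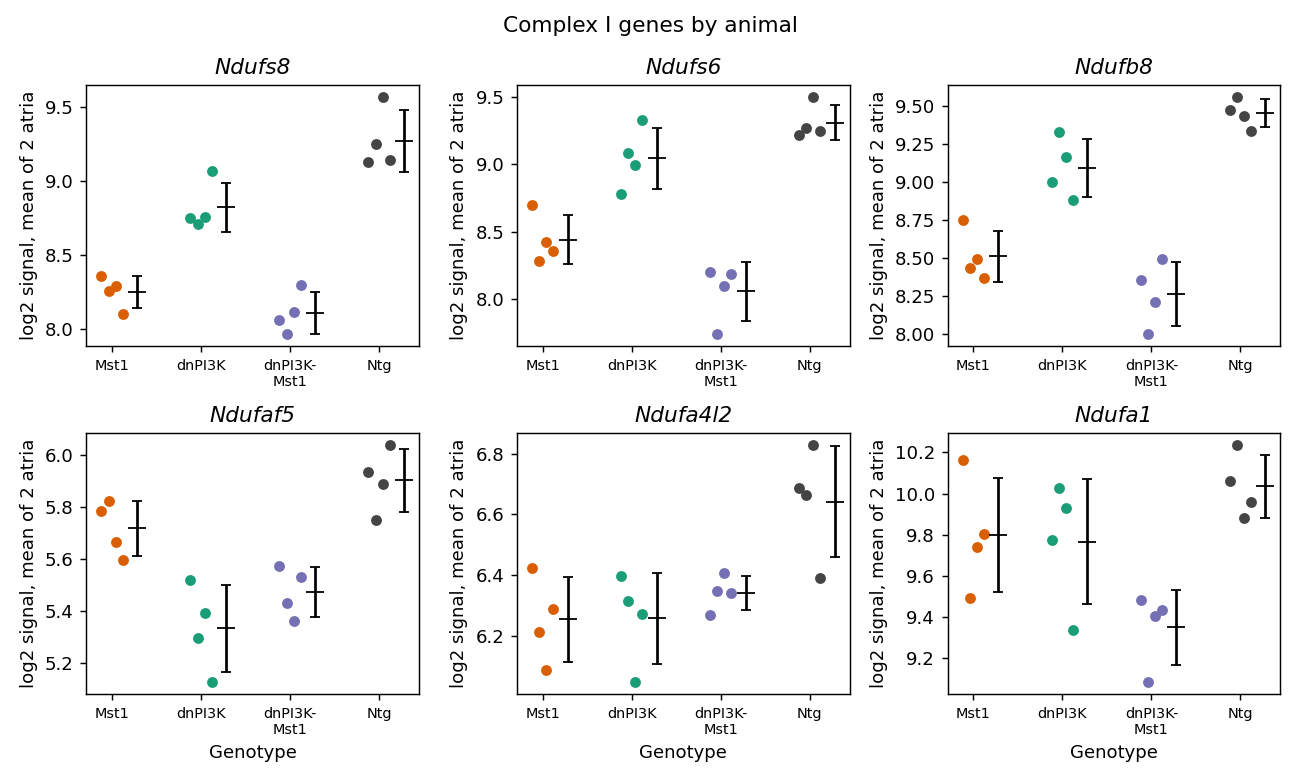
Log2 signal of 6 complex I genes in each animal (mean of its atria); bars give mean ± SD over the 4 animals of a genotype. Ndufs8, Ndufs6 and Ndufb8 have every Mst1 and dnPI3K-Mst1 animal below every Ntg animal, Ndufaf5 is lowest in dnPI3K, Ndufa4l2 lies at a like level in all 3 transgenic groups, and for Ndufa1 Mst1 1466, at 10.16, lies among the Ntg animals.

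Ndufab1, the mitochondrial acyl carrier protein that sits in the complex in both arms and also serves lipoic acid synthesis, averaged 9.20 ± 0.14 in Mst1 animals, 9.50 ± 0.096 in dnPI3K animals, 8.91 ± 0.24 in dnPI3K-Mst1 animals and 9.95 ± 0.13 in Ntg animals (SD, n = 4 each). It fell in all 3 comparisons with Ntg, by 0.75, 0.45 and 1.05. Ndufa4, first described with complex I and since placed in cytochrome c oxidase, was 11.96, 11.78, 11.84 and 11.72 in Mst1 animals, against 12.25, 12.16, 12.12 and 12.26 in Ntg animals, and fell by 0.37 (adjusted p = 0.0014, limma).

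Ndufa4l2, a paralogue of Ndufa4 that hypoxia induces, had a pattern of its own. It was 6.42, 6.21, 6.09 and 6.29 in Mst1 animals and 6.40, 6.31, 6.05 and 6.27 in dnPI3K animals. Ndufa4l2 was 6.27, 6.35, 6.41 and 6.34 in dnPI3K-Mst1 animals, against 6.69, 6.66, 6.83 and 6.39 in Ntg animals. The 3 transgenic groups overlapped each other, and Ntg 1834 lay within the range of all 3. Its difference from Ntg was -0.39 with either transgene alone and -0.30 with both, in the order Mst1, dnPI3K and dnPI3K-Mst1 with adjusted p of 0.0047, 0.027 and 0.022 by limma. Its non-additivity term, the excess of dnPI3K-Mst1 over the sum of both single differences, was 0.47 ± 0.14, with an adjusted p of 0.14 by limma, the lowest among the 43 genes.

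Of the 7 assembly factors, 5 fell in Mst1 atria, 3 in dnPI3K atria and 7 in dnPI3K-Mst1 atria, with medians of -0.37, -0.33 and -0.59, where 14.2%, 2.75% and 14.2% of all genes were called lower. Ndufaf1, a scaffold of the complex that builds the membrane arm, was 7.23, 7.43, 7.41 and 7.35 in Mst1 animals, against 8.09, 8.003, 8.19 and 8.12 in Ntg animals. It was 7.65, 7.66, 7.53 and 7.66 in dnPI3K animals and 7.29, 6.91, 7.22 and 7.18 in dnPI3K-Mst1 animals. All transgenic animals were below all Ntg animals for Ndufaf1, which differed from Ntg by -0.75 ± 0.083 in Mst1, by -0.47 ± 0.083 in dnPI3K, and by -0.95 ± 0.083 in dnPI3K-Mst1, with adjusted p of 1.2e-06, 0.0019 and 5e-08 by limma.

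Ndufaf5, which hydroxylates the Q-module subunit Ndufs7 during assembly, had another order of groups. It was 5.78, 5.82, 5.66 and 5.59 in Mst1 animals and 5.52, 5.29, 5.39 and 5.12 in dnPI3K animals. Ndufaf5 was 5.57, 5.43, 5.36 and 5.53 in dnPI3K-Mst1 animals, against 5.93, 5.75, 5.89 and 6.04 in Ntg animals. Every dnPI3K and dnPI3K-Mst1 animal was below every Mst1 and every Ntg animal, while Mst1 animals overlapped Ntg. It was the gene with the most negative dnPI3K estimate, -0.57 ± 0.09 (adjusted p = 0.00066, limma), and the one with the least negative Mst1 estimate, -0.19 ± 0.09 (adjusted p = 0.14, limma). Ndufaf5 was also the single gene of the 43 called higher in Mst1 than in dnPI3K, by 0.38 ± 0.09 (adjusted p = 0.0038, limma). Its mean signal over all arrays, 5.61, was the lowest of the 43 genes, beside array medians of 5.51 to 5.68. The Bmp10-high array of dnPI3K 3241, 1 of the 4 that stood apart, read 4.69 for Ndufaf5. Ndufaf7, a methyltransferase for the Q module, fell in dnPI3K by 0.33 (adjusted p = 0.028, limma) and in Mst1 by 0.40 (adjusted p = 0.0011, limma). Ndufaf4, a Q-module factor, differed by -0.24 ± 0.12 in Mst1 (adjusted p = 0.16, limma), and Ndufaf6 fell by 0.48 (adjusted p = 0.0017, limma).

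Promoter sequence was set beside these patterns for 38 of the 43 genes, those with an entry among RefSeq's promoters of 250 bases before to 50 after the start (build GRCm38.p6). The NRF1 motif (GCGC, any pair of bases, GCGC), bound by a regulator of nuclear genes for respiration, was found in the promoters of 26.3% of these genes, searching both strands. Among all 26987 other genes with a promoter entry, whether tested here or not, the share was 6.97%. The 10 complex I genes that held the motif were Ndufa5, Ndufa6, Ndufa8, Ndufa11, Ndufab1, Ndufaf4, Ndufaf5, Ndufs5, Ndufs6 and Ndufv2. The YY1 motif ATGGCGG was found for 23.7% of the genes and 4.67% of others. In Ndufa9, Ndufs4, Ndufs6 and Ndufs7 it lay in the last 50 bases, after the start. Whether such matches are start codons (ATG) and not binding sites was not tested. The shares were 13.2% and 9.92% for the GABPA/ETS motif CCGGAAG, and 5.26% and 5.38% for the ERR motif AAGGTCA. They were 50% and 38.2% for the SP1 motif GGGCGG, and 31.6% and 41.1% for CCAAT. NRF1 motifs thus stood in promoters of genes with large falls, such as Ndufs6, and in those of Ndufaf4 and Ndufaf5, which did not pass the test in Mst1.

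The promoters of 4 genes are printed as examples: Ndufs8 had the largest fall in Mst1 and Ndufs6 in dnPI3K-Mst1, while Ndufaf5 and Ndufa1 did not pass the test in Mst1. Capitals mark a GABPA/ETS motif in Ndufs8, an NRF1 and a YY1 motif in Ndufs6, an NRF1 motif in Ndufaf5 and a YY1 motif in Ndufa1, on either strand. They lie at chr19:3912725-3913024 (minus strand), chr13:73328433-73328732 (minus), chr2:140170396-140170695 (plus) and chrX:37191189-37191488 (minus), in that order, and run 5′ to 3′.
Ndufs8: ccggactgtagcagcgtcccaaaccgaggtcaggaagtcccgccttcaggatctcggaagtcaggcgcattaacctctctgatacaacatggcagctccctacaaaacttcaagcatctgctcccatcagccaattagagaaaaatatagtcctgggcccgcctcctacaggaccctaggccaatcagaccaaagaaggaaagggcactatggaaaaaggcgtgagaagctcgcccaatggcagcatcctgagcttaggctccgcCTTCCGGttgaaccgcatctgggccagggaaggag
Ndufs6: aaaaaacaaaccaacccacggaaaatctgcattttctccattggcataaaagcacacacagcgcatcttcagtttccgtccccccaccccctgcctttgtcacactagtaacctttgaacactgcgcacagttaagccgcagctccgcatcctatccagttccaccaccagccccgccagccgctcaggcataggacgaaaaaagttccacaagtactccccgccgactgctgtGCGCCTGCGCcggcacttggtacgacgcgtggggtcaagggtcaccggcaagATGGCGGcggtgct
Ndufaf5: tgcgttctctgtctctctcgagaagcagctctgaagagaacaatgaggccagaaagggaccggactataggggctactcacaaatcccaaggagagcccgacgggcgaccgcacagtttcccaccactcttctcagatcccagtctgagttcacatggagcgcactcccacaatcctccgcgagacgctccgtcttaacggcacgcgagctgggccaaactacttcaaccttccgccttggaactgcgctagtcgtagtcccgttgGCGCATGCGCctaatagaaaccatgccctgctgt
Ndufa1: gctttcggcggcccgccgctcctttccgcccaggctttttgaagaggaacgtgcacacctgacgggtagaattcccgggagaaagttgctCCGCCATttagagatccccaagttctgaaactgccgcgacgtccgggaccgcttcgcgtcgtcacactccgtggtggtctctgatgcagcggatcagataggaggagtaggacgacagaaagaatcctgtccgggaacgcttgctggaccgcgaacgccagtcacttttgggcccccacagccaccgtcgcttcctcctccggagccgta

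The design crosses both transgenes, so each could be read with and without the other. With Mst1 added to dnPI3K (dnPI3K-Mst1 against dnPI3K) 39 genes fell, where 8.8% of all genes tested were called lower, with a median of -0.54, and Ndufaf2, Ndufaf5, Ndufaf7 and Ndufa4l2 did not pass the test. The animals did not overlap for 37 genes, beside 9.8% of all genes. With dnPI3K added to Mst1 (dnPI3K-Mst1 against Mst1) 4 genes fell, Ndufa2, Ndufa3, Ndufa4 and Ndufb3, where 0.848% of all genes tested were called lower. The median of that comparison was -0.23, 42 of 43 estimates were below 0, 22 genes had an unadjusted p under 0.05, and the animals did not overlap for 11 genes, beside 3.26% of all genes. The 4 estimates were -0.42 for Ndufa2, -0.35 for Ndufa3, -0.29 for Ndufa4 and -0.33 for Ndufb3, with adjusted p of 0.038, 0.044, 0.046 and 0.044 by limma. These 4 calls rest on single animals: without Mst1 1466, Mst1 1839 or dnPI3K-Mst1 1647, 0 genes were called, and leaving out any other animal gave between 1 and 4. Without dnPI3K-Mst1 1647 the median was -0.15.

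Set directly against each other, Mst1 atria were lower than dnPI3K atria for 25 genes and higher for 1, where 10% of all genes tested were called lower and 11.8% higher, with a median of -0.32. The animals did not overlap, with Mst1 lower, for 19 genes, beside 10.9% of all genes. The non-additivity term was not called by limma for any of the 43 genes, beside 0.513% of all genes in either direction; 3 genes had an unadjusted p under 0.05, all above 0, and the median was 0.08. Without 1 animal that median was 0.02 (dnPI3K-Mst1 1650), 0.03 (Mst1 1840), 0.04 (Mst1 1838) or 0.15 (Mst1 1466 or dnPI3K-Mst1 1647).

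Across the 43 genes, each transgene's estimates with and without the other were set side by side. The estimates of Mst1 against Ntg and of dnPI3K-Mst1 against dnPI3K, which share no animals, had a Pearson r of 0.806 across genes. The estimates of dnPI3K against Ntg and of dnPI3K-Mst1 against Mst1, which share none either, had an r of 0.029, with most values of both between -0.5 and 0. Genes of 1 array share its RNA and are not independent, so both coefficients are descriptions. Ndufs6 was low on both Mst1 axes, at -0.87 and -0.99, and Ndufa4l2 was low in Mst1 against Ntg, at -0.39, but not in dnPI3K-Mst1 against dnPI3K, at 0.08.

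**Figure D4:**
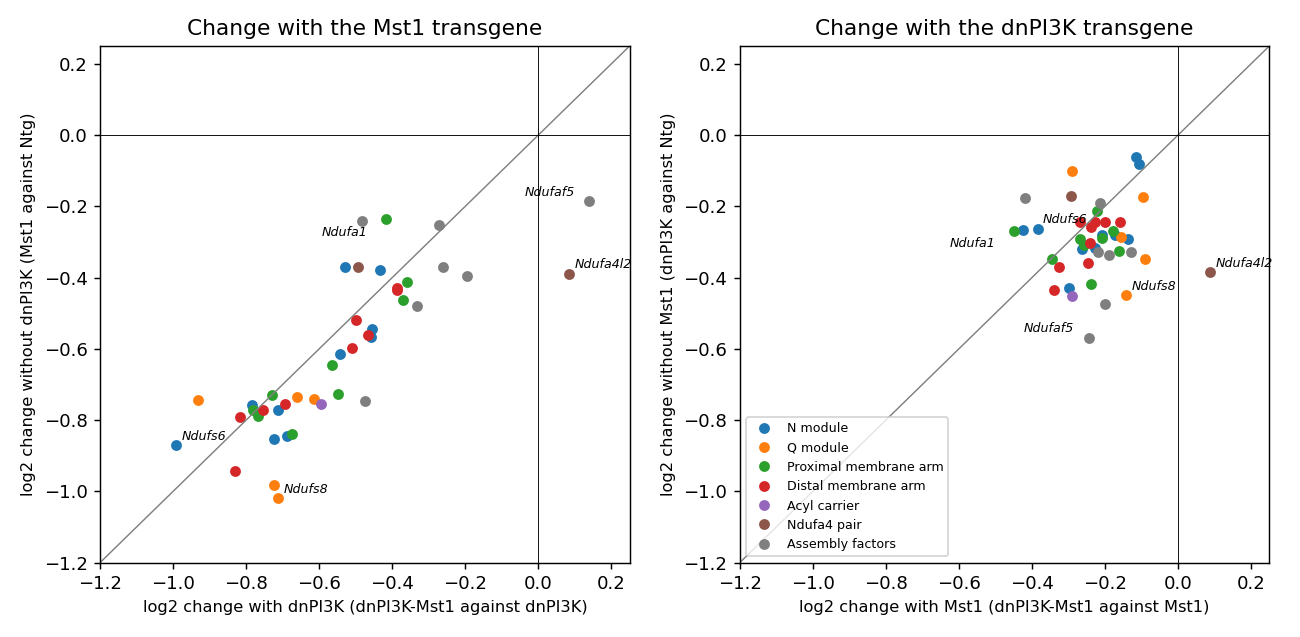
Log2 estimates of 43 complex I genes for 1 transgene in the presence (horizontal axis) and absence (vertical axis) of the other, for Mst1 on the left and dnPI3K on the right; the grey line marks equal estimates. The Mst1 estimates spread along the line (r = 0.806 across genes), the dnPI3K estimates form a cloud with r = 0.029, Ndufa4l2 lies to the right of 0 in both panels, and Ndufaf5 does so in the Mst1 panel.

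The Mst1 and dnPI3K-Mst1 differences were seen in both atria, while for dnPI3K genes were called in Bmp10-low atria alone. In Bmp10-high atria 33 genes fell in Mst1 against Ntg (9.48% of all genes tested were called lower), 0 in dnPI3K (0.716%) and 40 in dnPI3K-Mst1 (8.53%), and in Bmp10-low atria 37 (12.2%), 5 (2.18%) and 42 (13.4%). Medians in Bmp10-high atria were -0.61 for Mst1, -0.23 for dnPI3K and -0.74 for dnPI3K-Mst1, and in Bmp10-low atria -0.69, -0.34 and -0.94. For the 0 genes called in dnPI3K Bmp10-high atria by limma, 19 had an unadjusted p under 0.05. Whether a genotype difference was itself unequal between the classes was tested within animals, and limma called none of the 43 genes for Mst1, dnPI3K or dnPI3K-Mst1 (1.17%, 0.125% and 0.999% of all genes were called in either direction). At an unadjusted p under 0.05 the numbers were 3, 3 and 9. The class difference was above 0 (less negative in Bmp10-high atria) for 32, 33 and 40 of the 43 genes. Its medians were 0.12, 0.07 and 0.20, and that for dnPI3K ran from -0.007 to 0.21 with 1 animal left out. Genes of 1 array are not independent, and the share of all genes above 0 is not given. These counts are therefore descriptions and do not set the complex I genes apart from other genes.

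Between the atria of an animal, no complex I gene passed the test. For Bmp10-high minus Bmp10-low, averaged over genotypes, limma called 0 of 43 genes, where 8.5% of all genes tested were called in either direction, with a median of -0.06 (-0.04 without dnPI3K 3241) and 4 genes at an unadjusted p under 0.05. In Ntg alone the median was -0.16, 39 of 43 estimates were below 0 and 10 had an unadjusted p under 0.05, but 0 were called (3.65% of all genes). The median over the 43 genes was 9.75, 9.67, 9.60 and 9.70 in Bmp10-high Ntg atria, against 9.82, 9.92, 10.01 and 9.81 in Bmp10-low Ntg atria. All 4 Ntg animals thus had the higher level in the Bmp10-low atrium, and the classes did not overlap. In dnPI3K-Mst1 animals it was 8.82, 8.65, 8.75 and 8.91 in Bmp10-high atria, against 8.84, 8.38, 8.76 and 8.85 in Bmp10-low atria, which overlapped.

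**Figure D5:**
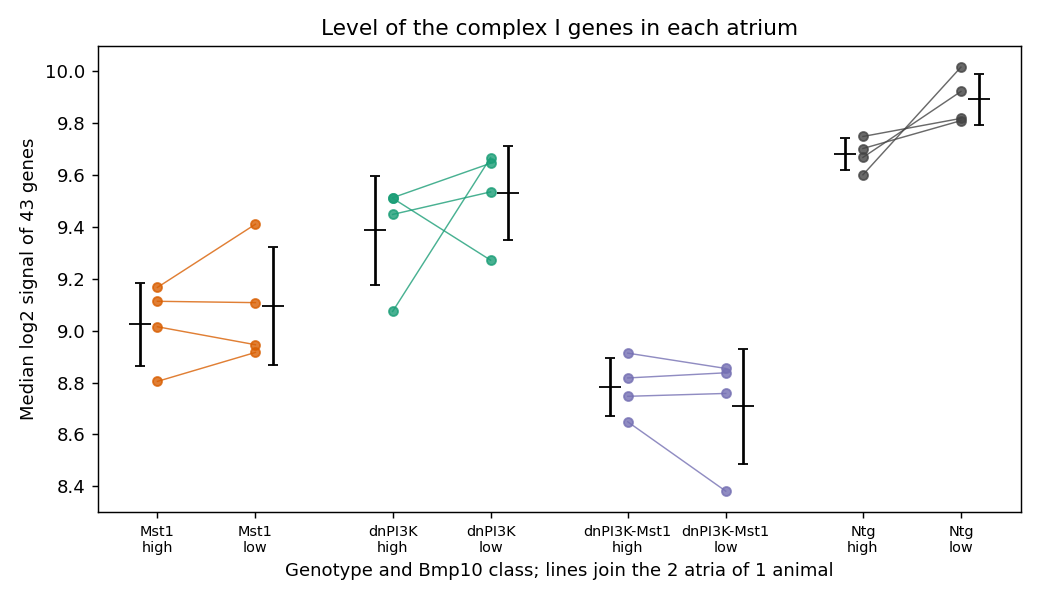
Median log2 signal of the 43 complex I genes on each array, by genotype and Bmp10 class; lines join the atria of 1 animal and bars give mean ± SD over 4 animals. In Ntg all 4 lines run to a higher level in the Bmp10-low atrium, in dnPI3K the Bmp10-high atrium of animal 3241, at 9.07, lies below the others, and the Mst1 and dnPI3K-Mst1 arrays lie below all Ntg arrays.

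The genes with the largest difference between the classes, averaged over genotypes, were Ndufa1 at -0.19, Ndufa4l2 at 0.15, Ndufb10 at -0.15, Ndufb6 at -0.14 and Ndufaf6 at -0.14, none of which passed the test (adjusted p from 0.14 to 0.46, limma). Ndufb10, a distal membrane-arm subunit, was 8.70, 8.79, 7.92 and 9.04 in Bmp10-high Ntg atria, against 9.30, 9.40, 9.15 and 9.04 in Bmp10-low Ntg atria. Its Ntg difference of -0.61 ± 0.19 was widest in Ntg 1662, whose Bmp10-high array was 1 of the 4 that stood apart (adjusted p = 0.099, limma). Ndufa4l2 ran the other way in Ntg, with 6.88, 6.87, 7.05 and 6.51 in Bmp10-high atria, against 6.49, 6.46, 6.61 and 6.27 in Bmp10-low atria, and a difference of 0.37 ± 0.13 (adjusted p = 0.17, limma). In each Ntg animal Ndufa4l2 was higher in the Bmp10-high atrium. Ndufa1 in dnPI3K was 9.56, 10.10, 9.97 and 8.71 in Bmp10-high atria, against 9.98, 9.95, 9.90 and 9.96 in Bmp10-low atria, so that 1 array, of animal 3241, set its spread.

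Other genes of the pathway were taken from lists written for this purpose. Their counts, and those of the lists in the paragraphs that follow, stand beside these shares of all genes. In Mst1 against Ntg 14.2% of all genes were called lower and 12.6% higher, in dnPI3K 2.75% and 1.29%, and in dnPI3K-Mst1 14.2% and 16.4%. Assembly factors without an Nduf name had 10 of 14 members lower in Mst1 atria and none higher, with a median of -0.38, led by Foxred1 at -0.75 and Aifm1, which imports subunits, at -0.71. In dnPI3K-Mst1 12 of 14 were lower and in dnPI3K 1, the membrane-arm factor Tmem126a, at -0.52 ± 0.11 (adjusted p = 0.0034, limma). Genes for coenzyme Q synthesis and other NADH or quinone enzymes had 10 of 14 lower and 1 higher in Mst1, with a median of -0.60. Coq8a, a kinase-like regulator of coenzyme Q synthesis, was 8.36, 8.48, 8.55 and 8.58 in Mst1 animals, against 9.87, 9.88, 9.96 and 9.98 in Ntg animals, and fell by 1.43 (adjusted p = 1.4e-09, limma), and Coq10a fell by 0.99 (adjusted p = 7.6e-08, limma), while Coq8b, a paralogue of Coq8a, rose by 0.24 (adjusted p = 0.019, limma). ND3, the mitochondrially encoded subunit with a named probe set, was 12.46, 12.22, 12.33 and 12.06 in Mst1 animals, against 12.32, 12.51, 12.31 and 12.45 in Ntg animals. These overlapped, and its difference of -0.13 did not pass the test (adjusted p = 0.28, limma). In dnPI3K-Mst1 animals ND3 was 12.15, 12.27, 12.29 and 12.15, below every Ntg animal, with a difference of -0.18 that did not pass the test (adjusted p = 0.104, limma). In dnPI3K the difference was also -0.18 (adjusted p = 0.288, limma).

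Among 14 genes used as a gauge of mitochondrial mass (porins, import and cristae proteins), 9 were lower in Mst1 atria, 12 in dnPI3K-Mst1 atria and 1 in dnPI3K atria, with medians of -0.33, -0.41 and -0.15. Vdac1, the main porin, differed from Ntg by -0.80 in Mst1, -0.90 in dnPI3K-Mst1 and -0.37 in dnPI3K, and Cs, citrate synthase, by -0.70 in Mst1. Of 14 regulators of mitochondrial genes, 5 were lower in Mst1, none higher, with a median of -0.24. Ppara, a receptor that drives fatty acid oxidation genes, fell by 0.80 (adjusted p = 0.00016, limma), and Tfam, which packages mitochondrial DNA, by 0.49 (adjusted p = 0.0006, limma). Esrra fell by 0.34 (adjusted p = 0.0035, limma), while Ppargc1a was at -0.41 and did not pass the test (adjusted p = 0.0503, limma), and Nrf1 at 0.13 (adjusted p = 0.38, limma). Tfam also fell in dnPI3K, by 0.39 (adjusted p = 0.023, limma), the single regulator of the 14 to do so.

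Markers of the cells that atria hold moved in the same comparisons, and their part in the complex I differences was not tested. Of 13 general cardiac myocyte genes 3 were lower in Mst1 (Tnni3 at -0.73 and Tnnc1 at -0.39 among them), 0 in dnPI3K by limma (0 also at an unadjusted p under 0.05) and 5 in dnPI3K-Mst1, with medians of -0.08, -0.03 and -0.08. Their mean level ran from 11.31 to 11.84 in Mst1 animals, 11.77 to 11.86 in dnPI3K animals, 11.46 to 11.78 in dnPI3K-Mst1 animals and 11.78 to 11.96 in Ntg animals. The 11.31 was that of Mst1 1466, whose array labelled left had the lowest mean correlation with the other arrays, 0.949. The 8 atrial markers had 4 lower in Mst1, with Kcnj3 at -1.04 and Kcna5 at -0.83, and 5 lower and 1 higher in dnPI3K-Mst1, and their mean ran from 9.89 to 10.20 in Mst1 animals, 10.26 to 10.34 in dnPI3K animals, 9.89 to 10.02 in dnPI3K-Mst1 animals and 10.31 to 10.39 in Ntg animals. Fibroblast markers had 2 of 9 higher in Mst1 (Tcf21 at 0.53 and Dcn at 0.31), 1 of 9 in dnPI3K and 7 of 9 in dnPI3K-Mst1, with means from 9.92 to 10.03 and 10.21 to 10.75, beside 9.49 to 10.06 in dnPI3K and 9.45 to 10.03 in Ntg. Of 7 genes marking smooth muscle cells and pericytes, 4 were higher (Cnn1 at 2.56 and Tagln at 1.71 among them) and 1 was lower in Mst1, and 5 were higher in dnPI3K-Mst1, with means from 8.19 to 8.64 and 8.62 to 8.88, beside 7.70 to 7.84 in dnPI3K and 7.70 to 7.88 in Ntg. Endothelial markers had 4 of 8 lower and 1 higher in Mst1 (Kdr and Tek both at -0.79), and 1 lower and 2 higher in dnPI3K-Mst1, with means from 8.94 to 9.25 in Mst1, 9.38 to 9.62 in dnPI3K, 9.39 to 9.69 in dnPI3K-Mst1 and 9.31 to 9.61 in Ntg animals. Macrophage markers had 1 of 9 lower in Mst1 (Cd163 at -0.54) and 3 higher in dnPI3K-Mst1, with means from 7.59 to 7.89 in Mst1, 7.74 to 8.09 in dnPI3K, 7.91 to 8.51 in dnPI3K-Mst1 and 7.64 to 8.13 in Ntg animals. Adipocyte markers had 2 of 5 lower in Mst1 (Plin1 at -0.67 and Fabp4 at -0.51) and 1 in dnPI3K-Mst1, with means from 5.73 to 6.04 in Mst1, 5.95 to 6.10 in dnPI3K, 5.75 to 6.96 in dnPI3K-Mst1 and 5.96 to 7.10 in Ntg animals; the arrays of Ntg 1301 and dnPI3K-Mst1 1650 with high Adipoq lie in the last 2 groups.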

How the data were processed

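The deposited series table holds 1 column of log2 signals per array; the submitters' processing notes name Affymetrix Expression Console and PLIER, without versions, and the log2 base was read from the range of the values, 1.16 to 14.08. Background correction, scaling and filters are not given in the sources used here. Of 35512 probe sets, 21789 carried 1 gene symbol, and the brightest over the 32 arrays stood for each of 19938 genes. Genes whose mean signal lay below the 30th percentile over all probe sets (4.48 log2) were left out, which kept 15219 genes. The atria of an animal were averaged, and genotypes of 4 animals each were compared with limma 3.58.1 (lmFit, eBayes with trend, R 4.3.3), all groups in 1 fit, two-sided, with Benjamini-Hochberg adjustment over all genes and calls at an adjusted p under 0.05. Bmp10 classes were fitted separately, and within-animal differences between atria in a further fit. ± is SE for a difference and SD for a mean. The scripts were tested on simulated data in which the atria of an animal were drawn independently. How many small differences such fits would miss is not given here. The number of animals limits the precision, and the p-values cover only the spread among them. The animal number pairs its atria and no animals of different genotypes.

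Array medians lay between 5.51 and 5.68, and no pair of arrays was identical, the highest correlation being 0.990. The member genes and the other gene lists were chosen with earlier results of these data known. Genes named by rule were, in each module, those with the largest and smallest difference in Mst1 against Ntg, the 5 with the largest difference between Bmp10 classes, Ndufa4, Ndufa4l2, Ndufab1, Ndufs4, Ndufv1 and Ndufs1, and in the other lists the 2 (or fewer) called genes with the largest difference in Mst1 against Ntg. Ndufa3, Ndufb3, Ndufaf4, Ndufaf7, Tmem126a, Coq8b, Esrra, Ppargc1a and Nrf1 were named after their values were seen. Ndufa11, Ndufa12, Ndufab1, Ndufs5 and Ndufs6 have near copies or pseudogenes in RefSeq whose signal their probes could share. Ndufa11, Ndufab1, Ndufb11, Ndufc1 and Ndufs3 had a second probe set. In Mst1 against dnPI3K the call depended on it for Ndufa11 and Ndufc1, and not for Ndufab1, Ndufb11 and Ndufs3. Adjusted p by limma was 0.125 with the set used and 0.040 with the other for Ndufa11. For Ndufc1 these were 0.021 and 0.065. The alternatives tried were the filter, median centring, quantile normalization, all probe sets of a gene, the variance model, array weights, the animal as a block, labelled sides, other Bmp10 divisions, and leaving out animals.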

Additional observations from a re-analysis of the deposited data

Results flagged for a closer look

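A single animal stood far from the other animals of its group, by Dixon's 95% criterion, in 5 of the 84 groups examined; chance gives about 1 in 20 groups. Ndufaf1 was 7.53 in dnPI3K 1660, below the range of 7.65 to 7.66 in the other dnPI3K animals. Ndufs8 was 9.06 in dnPI3K 3241, above 8.71 to 8.76 in the others. Ndufb10 was 8.54 in Ntg 1662, below 9.003 to 9.10 in the others. The median over the 43 genes was 9.07 in the Bmp10-high atrium of dnPI3K 3241, below 9.45 to 9.51 in the other dnPI3K animals, and 8.52 in dnPI3K-Mst1 1647 (mean of its atria), below 8.82 to 8.86 in the others. The arrays labelled left of dnPI3K 3241 and right of Ntg 1662 were among the 4 with the lowest mean correlation with the other arrays.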

How the results depend on the processing

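Among 18 genes tried (3 comparisons with Ntg each), no estimate reversed its direction under the 31 other settings; the other genes named were not tried. The counts lower in Mst1 and in dnPI3K-Mst1 against Ntg stayed within 1.5 times of those given. The 9 genes lower in dnPI3K against Ntg became 20 with array weights, 1 with arrays labelled left only, 2 with arrays labelled right only and 3 once the 4 animals with an outlying array were removed. Leaving out 1 animal gave from 4 genes (without Ntg 1662 or dnPI3K 1660) to 18 (without Mst1 1466), with 5 without dnPI3K 1507 and 14 without dnPI3K-Mst1 1647. The 4 genes lower in dnPI3K-Mst1 against Mst1 became 1 with no filter on dim genes, 2 with median centring, 7 with array weights, 1 once those 4 animals were removed, and 0 with arrays of either labelled side alone; leaving out 1 animal gave from 0 (without Mst1 1466, Mst1 1839 or dnPI3K-Mst1 1647) to 4, with 1 without Mst1 1838, Ntg 1834, dnPI3K 1660, dnPI3K-Mst1 1509 or 1649, and 2 without Mst1 1840, Ntg 1657, dnPI3K 1507 or 1648. The 25 genes lower in Mst1 against dnPI3K became 13 with arrays labelled left only. Array weights called 1 gene for non-additivity, and quantile normalization called 2 for Bmp10-high minus Bmp10-low in Ntg. Leaving out 1 animal gave from 0 to 2 calls in that Ntg comparison (2 without Mst1 1466, dnPI3K 1660 or dnPI3K 3241, 1 without Ntg 1834 or dnPI3K-Mst1 1649), from 0 to 1 averaged over genotypes (1 without Mst1 1466 or dnPI3K 1660), and from 0 to 1 for the class difference of dnPI3K-Mst1 against Ntg (1 without dnPI3K-Mst1 1649).

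With the animal as a replicate block and labelled side as a term, 40, 12, 43, 4, 38 and 26 genes were lower in Mst1, dnPI3K and dnPI3K-Mst1 against Ntg, dnPI3K-Mst1 against Mst1 and dnPI3K, and Mst1 against dnPI3K. With the animal as a replicate block and Bmp10 class as a term, chosen after seeing the data, dnPI3K against Ntg gave 14. The cause of these shifts was not tested. Over all genes, median centring gave 540 lower and 146 higher in dnPI3K against Ntg, beside 419 and 197, and 2543 and 1898 in dnPI3K-Mst1 against Ntg, beside 2155 and 2503; quantile normalization gave 203 and 364 in dnPI3K-Mst1 against Mst1, beside 129 and 403.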
